A study of Mus musculus with 2 samples.

Results

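Skeletal muscle genes were followed in mouse eye cups: genes of the contractile filaments, of calcium handling and of the energy supply of skeletal and extraocular muscle fibres. The list held 44 genes, chosen by name and sorted into fast sarcomere, developmental myosin, slow sarcomere, giant and Z-disc, calcium handling and energy genes. For 43 of them the platform annotation gave at least 1 probe set (a group of short probes that reads 1 transcript) with that gene symbol alone, out of 18193 genes in all. Myh13, the superfast myosin of extraocular muscle, had no probe set of its own and has no value here. Where a gene had several probe sets, the one brightest on average over both arrays stands for it. Genes counted as measured if a reading reached the floor of its array, set at the median of all non-control probe sets (an intensity of 94.2 for wild type and 93.4 for the array labelled Mfsd2a KO). This was so for 26 of the 43 genes and for 11568 of all 18193, and 17 muscle genes lay below the floor. All 26 measured muscle genes reached the floor on both arrays, so none was counted on the strength of its higher array alone.

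The samples were eye cups of wild-type and Mfsd2a KO mice, both at postnatal day 13. Mfsd2a encodes a transporter of lysophosphatidylcholine that carries docosahexaenoic acid. For each genotype, RNA of 6 animals was combined into 1 pool and read on 1 Affymetrix Mouse 430 2.0 array, so there is no replicate, no test of a gene and no p-value, and every difference is between these 2 pools. The strain, the deleted part of Mfsd2a and the sex of the animals are not given in the sources used here, and pooling hides how the animals of a genotype differ from each other. The labels name cornea, lens and optic nerve as removed and do not mention the eye muscles.

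The extraocular muscles that turn the eye insert on the sclera, the outer wall of the eye cup. In any skeletal muscle fibre, myosin filaments pull on actin filaments within a sarcomere bounded by Z-discs, troponin and tropomyosin switch the actin filament on when calcium is released from the sarcoplasmic reticulum, and creatine kinase, glycogen breakdown and mitochondria supply the energy. Fast and slow fibres use different genes for most of these parts, and extraocular muscles are unusual in holding fast, slow, embryonic and extraocular myosins side by side.

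In the pool labelled Mfsd2a KO, Cox8b and Pvalb read lower by more than 1.5-fold, Ckm and Car3 by more than 1.2-fold in their brightest probe sets, and most other measured muscle genes by smaller amounts. Averaged over all their probe sets, Ckm was at -0.11 and Car3 at -0.057, short of 1.2-fold. Of the 26 measured genes, 20 had a log2 difference (knockout-labelled minus wild-type) below 0 and 6 above, with a median of -0.15. Of all 11568 measured genes 42.4% were below 0, and their median was 0.014. In bulk tissue, fewer cells of a type and less RNA per cell cannot be told apart. None of the 26 was at least 1.5-fold higher, against 0.138% of all measured genes, and 2 were at least 1.5-fold lower, against 0.0864%. At the smaller size of 1.2-fold, 0 were higher, against 1.79% of all measured genes, and 4 were lower, against 1.17%. That limit ran through close values: Car3 was 16.8% lower, just inside, and Myl1 16.4% lower, just outside.

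The only error that could be computed is technical. The SD of log2 differences among probe sets of the same gene was 0.0886 over 5201 measured genes with at least 2 such sets. By that yardstick, 16 of the 26 genes lay more than 1 SD below 0, 2 lay more than 1 SD above, and 8 lay within it. Of all measured genes 33.8% lay beyond 1 SD, 13.4% below and 20.3% above, so a difference of that size was common on these arrays. The central 95% of all measured genes ran from -0.21 to 0.23, and 9 of the 26 muscle genes lay below that range and 0 above. The yardstick does not hold the spread between animals or between arrays, and 17 of the 26 genes were read by a single probe set.

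**Figure D1:**
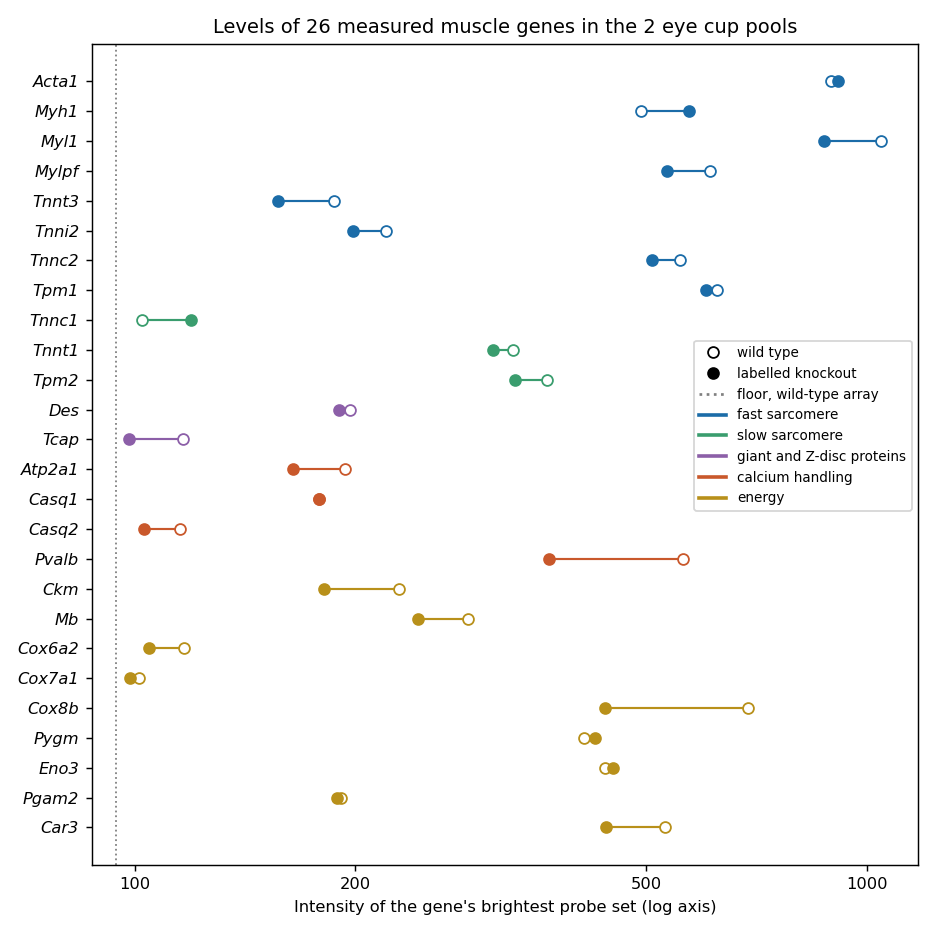
Intensity of the brightest probe set of each of the 26 measured muscle genes (log axis) on the wild-type array (open) and the array labelled knockout (filled), coloured by group; the dotted line is the wild-type floor. The widest gaps are those of Cox8b (687 and 439) and Pvalb (561 and 368), while Acta1, Casq1, Eno3 and Pgam2 nearly coincide and Myh1 and Tnnc1 lie higher in the pool labelled knockout. Levels of different genes come from different probes and are not comparable with each other.

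In the fast sarcomere, Acta1, the actin of skeletal thin filaments, read 894 in wild type and 912 in the pool labelled knockout, a log2 difference of 0.029. The fast light chains differed more: Myl1, the essential light chain, read 1046 and 874 (-0.26). Mylpf, the regulatory light chain, read 611 and 533 (-0.20). So both light chains, parts of the thick filament, read lower in the knockout-labelled pool, and the actin of the thin filament lay within the technical SD.

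The fast troponin complex, the calcium switch of the thin filament, was lower in all 3 subunits. Tnnt3, which binds tropomyosin, read 187 and 157 (-0.25). Tnni2, the inhibitory subunit, read 220 and 198 (-0.15), and its second probe set above the floor differed by -0.20. Tnnc2, the calcium sensor, read 557 and 509 (-0.13). Tnni2 and Tnnt3 are near neighbours on chromosome 7, with 1 protein-coding gene between them. Tpm1, a tropomyosin that many cell types use, read 624 and 603 (-0.050), and its other probe set above the floor differed by -0.049. Of the 8 measured genes of the fast sarcomere 6 were below 0, with a median of -0.14.

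The myosin heavy chains, the motors themselves, were mostly dim. Myh1, the heavy chain of fast fibres of the IIx kind, was among the 6 measured genes above 0: it read 492 and 572 (0.22), its second probe set read 437 and 471 (0.11), and the last one, at 17.5 and 17.6, lay below the floor. Myh4, the heavy chain of the fastest limb fibres, read 39.8 and 15.7, a log2 difference of -1.34, which is 2.53-fold lower. Both readings are below the floor, and the other Myh4 probe set, dimmer still, differed by 0.11. Myh2, the heavy chain of fast oxidative fibres, read 54.3 and 80.7 (0.57), also below the floor on both arrays. Of the developmental forms, embryonic Myh3 read 32.2 and 29.9 (-0.11) and perinatal Myh8 read 11.4 and 14.3 (0.33). Thus Myh1 is the sole heavy chain of the list that was measured, and the order of the others rests on dim readings. Both Myh1 probe sets above the floor have names ending in _a_at or _x_at, which mark sets that may read several transcripts. Without such sets Myh1 lay below the floor, so its level and its difference rest on them. The brightest sets of Acta1, Myl1, Tnnt3, Tnnt1, Tpm2 and Tcap also end in _a_at, and that of Casq2 in _s_at. All of these genes but Acta1 read lower in the pool labelled knockout. Without _s_at, _x_at and _a_at sets, 4 of the 8 fast sarcomere genes stayed measured, with a median of -0.14. The 18 members left in all had a median of -0.14, and none of the genes just named was among them.

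These heavy chain genes stand in a row on chromosome 11, in the order Myh3, Myh2, Myh1, Myh4, Myh8 and Myh13, with no other protein-coding gene between them in the RefSeq table. Their coding sequences are alike, and a probe placed in a common stretch could read several of them, which was not analysed here. The sequences before the start sites of Myh1, Myh2 and Myh4 are shown because these are the neighbouring heavy chain genes of adult fast fibres; of their differences only that of Myh1 comes from readings above the floor. Each window is the 250 bases before the RefSeq start on build GRCm38.p6, 5′ to 3′ on the plus strand: chr11:67199852-67200101 for Myh1, chr11:67170777-67171026 for Myh2 and chr11:67237562-67237811 for Myh4. Capitals mark 4 motifs searched on both strands: the E-box CAGCTG (bound by myogenic factors such as MyoD), the MEF2 motif, the CArG box (bound by serum response factor) and TATAAA.
Myh1: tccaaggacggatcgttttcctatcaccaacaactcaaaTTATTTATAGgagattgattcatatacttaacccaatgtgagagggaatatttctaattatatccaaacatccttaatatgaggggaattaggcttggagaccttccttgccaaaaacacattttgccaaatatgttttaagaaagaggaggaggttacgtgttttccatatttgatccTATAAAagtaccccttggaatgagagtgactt
Myh2: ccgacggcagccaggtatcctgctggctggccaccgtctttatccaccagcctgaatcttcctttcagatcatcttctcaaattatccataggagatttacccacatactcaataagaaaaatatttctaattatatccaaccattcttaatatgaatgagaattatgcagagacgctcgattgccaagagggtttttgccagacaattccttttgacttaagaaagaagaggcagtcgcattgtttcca
Myh4: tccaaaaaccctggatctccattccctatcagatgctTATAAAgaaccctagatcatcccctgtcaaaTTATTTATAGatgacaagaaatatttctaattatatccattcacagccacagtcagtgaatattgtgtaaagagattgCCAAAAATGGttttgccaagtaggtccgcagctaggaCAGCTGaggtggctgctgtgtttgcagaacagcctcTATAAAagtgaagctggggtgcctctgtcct
The windows of Myh1 and Myh4 each held a MEF2 motif, which started 211 and 182 bases before the start and overlapped a TATAAA on the other strand, and a TATAAA at 32 and 31 bases; Myh4 held a further one at 213 bases. Only that of Myh4, among the 3, also held CAGCTG (67 bases before the start) and a CArG box (104 bases). That of Myh2 held none of the 4 in these letters. All 3 shared the 20-base run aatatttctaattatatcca, which was found in 3 of the 32851 promoter windows of all genes.

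The slow sarcomere was split. Tnnt1, the slow troponin T, read 329 and 309 (-0.091). Tpm2, the beta tropomyosin that smooth muscle also uses, read 366 and 331 (-0.14), although its second probe set above the floor differed by -0.014. Tnnc1, the troponin C of slow and heart muscle, read 102 and 119 (0.22), higher in the pool labelled knockout and close to the floor in wild type. The median of these 3 was -0.091. The slow heavy chain Myh7 read 30.9 on both arrays, slow troponin I (Tnni1) read 55.8 and 56.8, and the slow myosin-binding protein Mybpc1 read 70.7 and 68.6, all below the floor.

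Few of the scaffold genes were measured. Tcap, which caps titin at the Z-disc, read 116 and 98.2 (-0.25), so it neared the floor in the pool labelled knockout. Des, the intermediate filament of all muscle kinds, read 197 and 190 (-0.051). The giant proteins were dim: titin (Ttn) read 72.2 and 68.9 in the brightest of its 6 probe sets, of which 3 were below 0 and 3 above, and nebulin (Neb) read 14.9 and 16.6. Actn2, a Z-disc crosslinker, read 71.3 and 67.6, and Ldb3 read 48.2 and 55.7 (0.21).

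**Figure D2:**
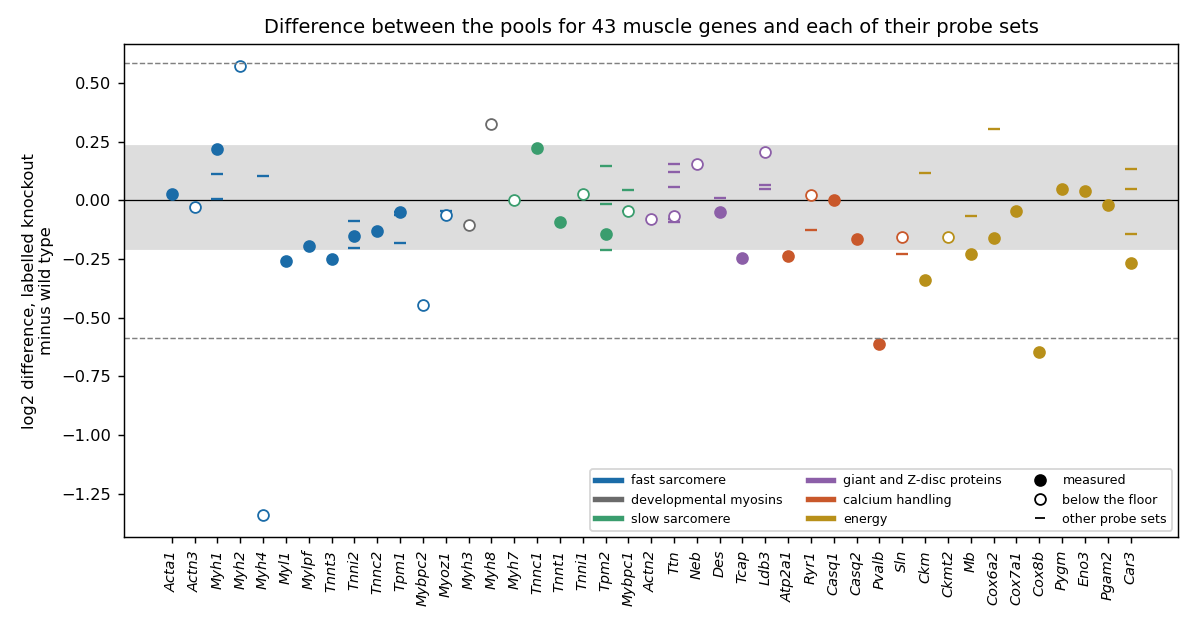
Log2 difference between the pools (knockout-labelled minus wild-type) for the 43 muscle genes with a probe set; circles are the brightest probe set, filled where measured and open below the floor, and dashes are the gene's other probe sets. The grey band is the central 95% of measured genes (-0.21 to 0.23) and the broken lines mark 1.5-fold: Cox8b, Pvalb and, below the floor, Myh4 (-1.34) lie beyond the lower line, and Myh2 (0.57) lies just inside the upper one.

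Calcium handling held Pvalb, next to Cox8b in the size of its difference. Pvalb encodes parvalbumin, a calcium buffer that lets fast fibres relax quickly and that some retinal neurons also make. It read 561 in wild type and 368 in the pool labelled knockout, a log2 difference of -0.61, or 34.5% lower, and took place 9 from the lowest of the 11568 measured genes. Its 1 probe set allows no check within the gene. Atp2a1, the calcium pump of fast sarcoplasmic reticulum, read 193 and 164 (-0.23). The calsequestrins, which store calcium there, read 178 and 179 for Casq1 of fast fibres (0.0018) and 115 and 103 for Casq2 of slow and heart muscle (-0.17). Hence the pump and the buffer were lower while the main fast store protein was level. The release channel Ryr1 read 37.8 and 38.3 and the pump inhibitor sarcolipin (Sln) read 33.3 and 29.9, both below the floor. Of the 4 measured genes 3 were below 0, with a median of -0.20.

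Among the energy genes, Cox8b differed most. It encodes a subunit of cytochrome c oxidase (respiratory complex IV) used in muscle and brown fat, and it read 687 and 439, a log2 difference of -0.65 or 36.2% lower, place 7 from the lowest of all measured genes. The other muscle subunits of the complex differed less: Cox6a2 read 117 and 104 (-0.16), with a dim second probe set at 0.30, and Cox7a1 read 101 and 98.3 (-0.044). The muscle partners of Cox8b in the complex thus differed by less than 1.2-fold in their brightest probe sets. Both of them read close to the floor, unlike Cox8b. Mb, the oxygen store myoglobin, read 285 and 243 (-0.23).

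Ckm, the cytosolic muscle creatine kinase that regenerates ATP at the sarcomere, read 229 and 181 (-0.34). Its second probe set, below the floor at 72.4 and 78.4, differed by 0.12, so the gene's probe sets did not share a sign. Ckmt2, the mitochondrial creatine kinase of sarcomeric muscle, read 32.2 and 29.0 (-0.15), below the floor. The 3 listed enzymes of glycogen and glucose breakdown lay within the technical SD. Glycogen phosphorylase Pygm read 411 and 425 (0.048), beta enolase Eno3 read 438 and 450 (0.039), and phosphoglycerate mutase Pgam2 read 191 and 189 (-0.019). Car3, a carbonic anhydrase of slow muscle and fat, read 529 and 441 (-0.27), with its second probe set above the floor at -0.14. Its remaining 2 probe sets, below the floor, differed by 0.050 and 0.13. In all, 7 of the 9 measured energy genes were below 0, with a median of -0.16.

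The windows before the starts of Cox8b and Pvalb, with that of Ckm, are shown because these 3 genes had the largest differences among the measured. They lie at chr7:140900447-140900696 (minus strand) for Cox8b, chr15:78206401-78206650 (minus strand) for the upstream of 2 RefSeq starts of Pvalb and chr7:19410844-19411093 (plus strand) for Ckm, on GRCm38.p6, with capitals as above.
Cox8b: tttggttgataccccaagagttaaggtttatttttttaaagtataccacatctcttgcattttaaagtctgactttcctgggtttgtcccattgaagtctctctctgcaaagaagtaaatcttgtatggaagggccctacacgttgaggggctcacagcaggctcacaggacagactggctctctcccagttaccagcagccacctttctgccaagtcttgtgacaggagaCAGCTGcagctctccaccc
Pvalb: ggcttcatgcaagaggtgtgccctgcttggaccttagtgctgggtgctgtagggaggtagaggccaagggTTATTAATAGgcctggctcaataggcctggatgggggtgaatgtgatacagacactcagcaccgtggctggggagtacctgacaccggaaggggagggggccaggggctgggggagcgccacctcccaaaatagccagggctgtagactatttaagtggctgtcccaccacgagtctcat
Ckm: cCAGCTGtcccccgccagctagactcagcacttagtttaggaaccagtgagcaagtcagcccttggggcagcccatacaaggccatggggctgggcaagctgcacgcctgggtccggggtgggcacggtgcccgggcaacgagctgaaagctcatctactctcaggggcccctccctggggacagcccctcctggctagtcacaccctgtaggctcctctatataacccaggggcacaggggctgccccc
Cox8b held a CAGCTG 19 bases before its start, Ckm a CAGCTG 249 bases before, and Pvalb a MEF2 motif 180 bases before and no CAGCTG, while the window of its other start held none of the 4. So these genes had no motif of the 4 in common in these windows. RefSeq windows were found for 35 of the 44 genes, 41 windows in all. CAGCTG was in 43.9% of them, against 13.0% of the 32851 windows of all genes. The looser E-box CANNTG, which includes CAGCTG, was in 85.4% against 66.2%. MEF2 motifs were in 17.1% against 2.92%, CArG boxes in 9.76% against 1.47% and TATAAA in 17.1% against 12.4%. Windows of a gene with several starts can overlap, so the same site can count more than once, as for Ldb3, Mb and Tnni1. By gene, CAGCTG was found in 16 of the 35, MEF2 in 7, a CArG box in 3 and TATAAA in 7. A match of letters describes the window and says nothing of binding in these eye cups.

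**Figure D3:**
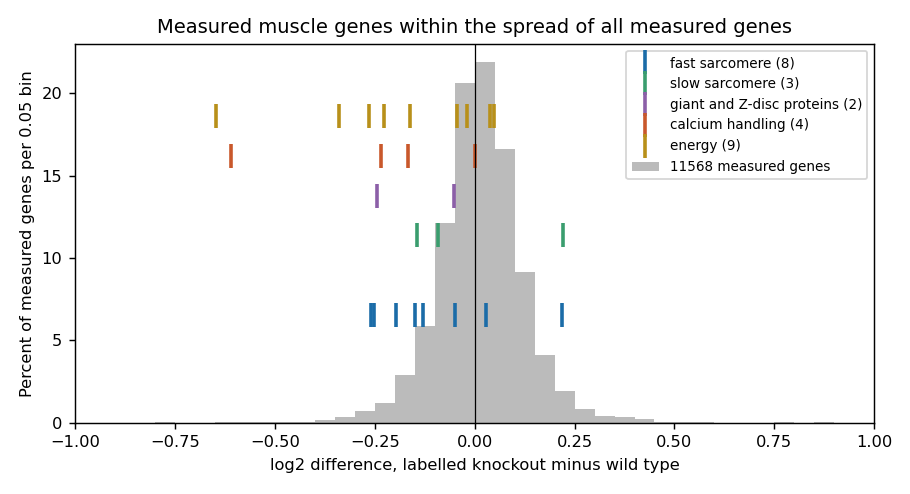
Distribution of the log2 difference over the 11568 measured genes (grey bars, percent per bin of 0.05) with each measured muscle gene as a coloured tick, one row of ticks per group at arbitrary height. Ticks of each group lie mostly left of 0, and those of Cox8b (-0.65) and Pvalb (-0.61) stand apart at the left; the axis is limited to -1 to 1.

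Several muscle genes have a relative that does the same work in most other cells or in slow fibres, and those relatives serve as a comparison within the same arrays. The pairs were written down after the first values had been seen. In 8 of 10 pairs of a muscle gene with a widespread relative, both measured, the muscle gene's difference was the lower, by a median of -0.18 (muscle gene minus relative). For Cox7a1 against Cox7a2 (-0.021) and Acta1 against Actb (-0.028) the gap was smaller than the technical SD of 0.0886. The relatives themselves differed by -0.14 to 0.12, and 0 of the 10 reached 1.2-fold. With relatives so near 0, the count largely repeats the members' own differences. The relatives were also brighter than the muscle genes, at 817 to 11755 in wild type, so the pairs are not at like intensity. Cox8a, the widespread form of Cox8b, read 5554 and 5451 (-0.027), and Cox6a1 read 11242 and 11601 (0.045). The brain creatine kinase Ckb read 8954 and 8577 (-0.062), and the widespread calcium pump Atp2a2 read 3051 and 2892 (-0.077). The lower readings of Cox8b, Ckm and Atp2a1 were not matched in size by their widespread relatives. The other direction was seen for Pygm against Pygb (-0.058) and Pgam2 against Pgam1 (-0.14). Of 3 pairs of a fast with a slow gene, the fast gene was the lower for Tnnt3 against Tnnt1 (by -0.16) and Tnnc2 against Tnnc1 (by -0.35), and the higher for Casq1 against Casq2 (by 0.17).

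**Figure D4:**
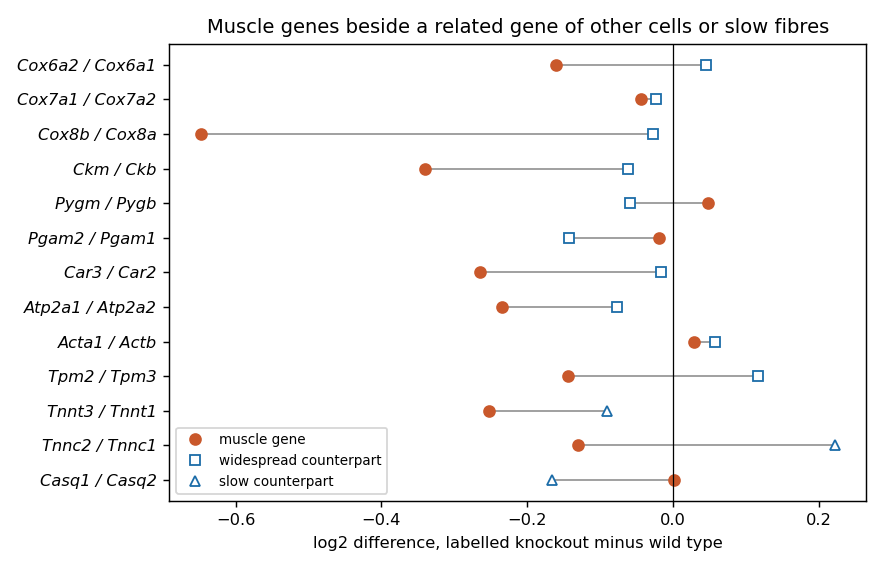
Log2 difference between the pools of 13 muscle genes (filled circles), each joined to that of a related gene used in most cells (open squares) or in slow fibres (open triangles). The circles lie left of the joined symbol in 10 of the 13 pairs, though barely for Acta1 and Cox7a1. The widest gap is that of Cox8b against Cox8a.

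The 17 genes below the floor give little beyond their dim levels, with intensities of 11.4 to 80.7. Of them 10 were below 0, 6 above and Myh7 at 0, with a median of -0.043, and 13 differed by less than 1.2-fold, from -0.15 to 0.21. Of all 6625 genes below the floor 59.9% were below 0. Myh4 was the 1 member at least 1.5-fold lower, against 0.166% of genes below the floor, and 0 were at least 1.5-fold higher, against 0.0755%. Myh2 and Myh8 were at least 1.2-fold higher, against 3%, and Myh4 and Mybpc2, a fast myosin-binding protein (55.6 and 40.7, -0.45), at least 1.2-fold lower, against 7.25%. The remaining fast genes below the floor were Actn3, a Z-disc crosslinker of fast fibres, at 62.1 and 60.9, and Myoz1, a binder of Z-disc proteins, at 56.9 and 54.4.

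Further genes used in skeletal muscle, on lists written apart from the members, were mostly dim too and did not share one direction. Some of them are also used widely in other cells. Of 34 further sarcomere genes, 6 were measured, 5 above 0 and 1 below, with a median of 0.16. They were led by Csrp3 (96.2 and 119, 0.31), a Z-disc protein, Pdlim3 (0.22) and Cryab (0.21), a small heat shock protein also abundant in lens and retina. The median lay between Cryab and Tpm3 (0.12), the latter counted above as the widespread relative of Tpm2. The other 26 with a probe set lay below the floor, 16 of them below 0 and 10 above, with a median of -0.028. Triad and excitation genes, which couple the membrane signal to calcium release, had 6 of 9 measured genes below 0 and a median of -0.077. That median was the value of Atp2a2, the widespread calcium pump. The largest differences were those of Jsrp1 (127 and 105, -0.27), Trdn, which encodes triadin (100.4 and 88.7, -0.18), and Kcna7 (97.0 and 85.7, -0.18). Trdn and Kcna7 were below the floor in the pool labelled knockout and counted as measured through wild type alone.

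Energy genes beyond the members had 10 of 15 below 0 and a median of -0.062, with Fabp3 at -0.15, the glycolytic enzyme Aldoa at -0.14 and Plaat1 at 0.13. That list also held Cox6a1, Cox7a2, Cox8a and Ckb, counted above as widespread relatives. Its median was the value of Ckb (-0.062), so it does not describe muscle forms alone. In the dystrophin complex, which links the fibre to its matrix, 4 of 9 were below 0 with a median of 0.0056, and Sgca, a sarcoglycan of striated muscle, read 101 and 83.3 (-0.27), above the floor in wild type alone, followed by Sspn (0.11) and Utrn (-0.10). At the neuromuscular junction 3 of 4 were below 0 (median -0.086), with Agrn at 0.19, Ache at -0.14 and Lrp4 at -0.11, genes that neurons also use. The acetylcholine receptor subunits Chrna1 (35.5 and 33.9), Chrnb1, Chrnd, Chrne and Chrng lay below the floor. Myogenic factors had 2 of 6 below 0 and a median of 0.035. Their largest difference was that of Mef2c (241 and 149, -0.69), which neurons and vessels also express, followed by Eya1 (95.1 and 84.7, -0.17), above the floor in wild type alone, and Chodl (0.14). Myod1 (24.9 and 26.3), Myog (18.2 and 18.6), Myf5, Myf6 and Pax7 were below the floor.

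Markers of other tissues also differed between the pools. Of 10 measured cornea and conjunctiva markers 9 were below 0, with a median of -0.32, led by Aldh3a1 (142 and 92.7, -0.62), above the floor in wild type alone, Krt14 (-0.56) and Krt4 (-0.53). Their summed intensity was 11415 in wild type and 10918 in the pool labelled knockout. Most of that sum came from Tkt (6357 and 6248, -0.025) and Pax6 (2324 and 2291, -0.021), so it says little of the other markers. Pigment epithelium had 10 of 11 below 0 (median -0.13, sums 48173 and 44969), led by Rdh5 (-0.34), Lrat (-0.31) and Rgr (-0.30). The measured muscle genes summed to 9778 and 8789. Cox8b (687 and 439) and Pvalb (561 and 368) made a large part of that drop, so it does not describe all members alike. Smooth muscle and pericyte markers, cells that share Des, Tpm1 and Tpm2 with the members, had 8 of 10 below 0 and a median of -0.065 (sums 8931 and 8292), with Myl9 at -0.24, Tagln at -0.17 and Smtn at 0.13. The other 6 of these markers lay below the floor, 3 of them below 0 and 3 above. Among them were the smooth muscle genes Myh11 (70.3 and 65.1) and Cnn1 (27.3 and 28.4). The part of smooth muscle and pericytes in the muscle result was not tested.

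Pvalb, Cox8b and Car3 may have further sources in the eye or orbit. Ganglion cell markers, from neurons of which some make parvalbumin, had 8 of 9 below 0, a median of -0.17 and sums of 15613 and 13639, with Nefh at -0.39, Slc17a6 at -0.24 and Thy1 at -0.20. Amacrine markers had 4 of 10 below 0 and a median of 0.010 (sums 18135 and 17728), with Tfap2a at 0.18, Calb2 at -0.17 and Prox1 at 0.17. Of 13 fat markers 3 were measured, with a median of -0.074 and sums of 1094 and 1046: Fabp4 (-0.084), Lpl (-0.074) and Retn (0.048). The defining fat genes Adipoq (15.4 and 10.2) and Ucp1, of brown fat (30.5 and 21.6), lay below the floor. Set aside next were 8 genes known also from neurons, smooth muscle or fat (Pvalb, Des, Tpm1, Tpm2, Cox7a1, Cox8b, Car3 and Eno3). Of the remaining 18 measured genes 13 were below 0 with a median of -0.16, and 1, Ckm, was at least 1.2-fold lower. Whether such cells gave part of the readings of the 8 in these eye cups was not tested. Both genes past 1.5-fold are thus among those 8.

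**Figure D5:**
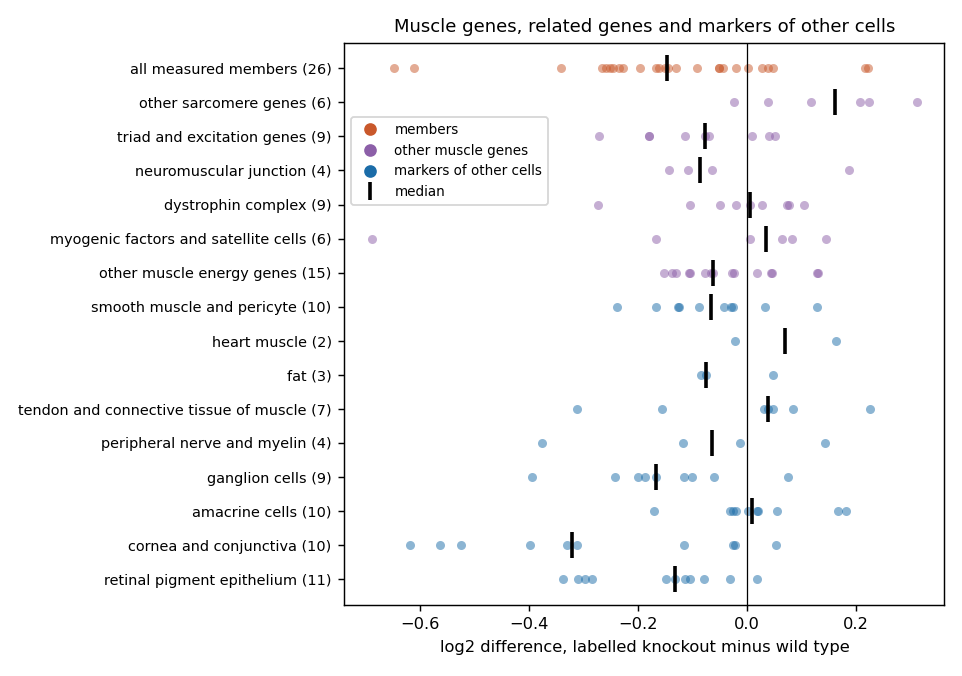
Log2 difference between the pools for the measured genes (points) of the muscle list, of 6 lists of other muscle genes and of 9 lists of markers of other cells, with the number of measured genes in brackets and the median as a bar. The muscle genes have a median of -0.15, further sarcomere genes lie higher at 0.16, and cornea and conjunctiva markers lie lowest at -0.32. The lists of other muscle genes also hold genes used widely in other cells.

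Facts of the whole series touch every value above. Mfsd2a itself read 181 in wild type and 244 in the pool labelled knockout (0.43), against the direction of the label, and since the deleted part is not known this probe set may check nothing; each direction here rests on the label. The pools also differed in sex-linked transcripts: Xist, of the inactive X chromosome of females, read 7055 and 4357 (-0.70), and the Y-linked genes Uty, Kdm5d and Eif2s3y differed by 1.01, 0.88 and 0.65. Over measured genes the arrays correlated at 0.997 (Pearson's r of log2 values across genes, which are not independent replicates). With 1 pool per genotype, the effect of genotype cannot be told apart from that of sex, dissection or array.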

How the data were processed

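The authors deposited linear intensities of 45101 probe sets for both arrays, 1 value per set and array. Partek 6.6 and RMA are named, per the submitters' processing notes, with no order or settings. RMA corrects background, equalises arrays and combines probes. The scale was read from the values (5.07 to 20644); nothing was centred.

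A single symbol was annotated to 34958 probe sets, and their Entrez identifiers were matched to the RefSeq table of GRCm38.p6. Base 2 logarithms were taken, and a difference is the array labelled knockout minus wild type. Sizes of 1.5-fold and 1.2-fold were counted. The alternatives were other floors, probe sets, sizes and member sets, removal of a loess trend (span 0.3) and centring. Every member is named. Of other lists, the 3 measured genes with the largest absolute differences are named. Some genes below the floor that define a cell type are named as well. Genes that set a median or most of a sum are named for some lists only. The members and lists were chosen with earlier results of these data known. Steps ran in Python 3.11.15 with pandas 2.3.3, numpy 2.4.6 and statsmodels 0.14.6 and were tested on simulated data.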

Additional observations from a re-analysis of the deposited data

How the results depend on the processing

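No paired analysis was possible because there is a single array for either genotype. The median of the measured muscle genes stayed below 0 in all 8 alternatives, between -0.16 and -0.077. So did those of the fast sarcomere (-0.16 to -0.090) in the 6 alternatives run for it. The same held for genes outside the 8 set aside as shared with other cells (-0.17 to -0.077, also 6 alternatives). The genes counted changed, from 26 to between 14 and 43 for all members and from 18 to between 8 and 35 outside the 8. Both values of -0.077 came with no floor. All alternatives use the same 2 arrays. Some of these 18, such as Tnnc1 and Casq2, are also heart genes. The 2 genes at least 1.5-fold lower became 0 at 2-fold and 0 without the 8 genes shared with other cells; both have 1 probe set, so the choice of probe set could not change them. Of the 4 genes at least 1.2-fold lower, 2 were left with the mean of probe sets, where Ckm was at -0.11 and Car3 at -0.057. Without the shared genes 1 was left. The count was 3 at the 70th percentile floor, 5 with the loess trend removed, and 6 both with no floor and with centring. With no floor 2 genes were at least 1.2-fold higher. Small groups moved most. The slow median was 0.22 without _s_at, _x_at and _a_at probe sets, where 1 gene was left. The giant and Z-disc median was -0.058 with no floor, -0.25 with the mean of probe sets and -0.051 without the _s_at, _x_at and _a_at sets. The calcium median was -0.61 at the 70th percentile floor, where Pvalb alone was left, and, averaging probe sets, the energy median was -0.044, where 7 genes were measured. In several of these fewer genes were left, while the giant and Z-disc group grew from 2 to 6 genes with no floor. The cause of the shifts was not tested. Added after the data were seen, counting each of the 31 probe sets above the floor once gave a median of -0.14. Also added then, counting only genes above the floor on both arrays gave medians of -0.070 over 7 triad genes, 0.017 over 8 of the dystrophin complex, 0.065 over 5 myogenic and -0.31 over 9 cornea and conjunctiva genes. The number of arrays limits every value.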

Other observations

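A pair of probe sets annotated to Myh7 and Myh6 together, the slow and atrial heavy chains, read 46.8 and 45.0 (-0.056) and 9.57 and 11.2 (0.22), both dim on each array, like Myh7 alone. Of 11 heart muscle markers 2 were measured, Actc1 (178 and 199, 0.16), an actin of heart and of developing skeletal muscle, and Ryr2 (-0.021), a release channel that neurons also use. The defining heart genes Myh6 (10.9 and 10.8), Myl7 (24.5 and 22.2) and Tnni3 (22.4 and 24.0) lay below the floor.

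Tendon and connective tissue markers had 2 of 7 measured genes below 0 and a median of 0.038. Below the floor lay Scx (41.2 and 42.9), Mkx (70.9 and 73.6) and Comp (53.1 and 48.2). Thbs4, a matrix protein of tendon and muscle, read 300 and 350 (0.23), while Kera, a corneal and scleral proteoglycan that is also on the cornea list, read 227 and 183 (-0.31) and Col3a1 differed by -0.16. Nerve and myelin markers had 3 of 4 below 0 and a median of -0.064, with Mal at -0.38, Mbp at 0.14 and Pmp22 at -0.12. Of 11 markers of the orbital glands 1 was measured, Aqp5 (96.5 and 89.4, -0.11), above the floor in wild type alone. No explanation was tested for these values.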
